A study of Mus musculus with 15 samples.

Results

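Among the 8996 genomic sites that an antibody to NRL recovered from mouse retina, 102 were assigned by the authors' annotation to genes of the RNA splicing machinery. The 102 peaks were taken by gene symbol alone, from the families Srsf, Sf3a and Sf3b, Snrp and Snrnp, Hnrnp, Prpf, U2af, Rbm and Lsm, and belong to 79 symbols, of which 61 had 1 peak. NRL is the Maf-family leucine zipper transcription factor that sets rod photoreceptor identity. Its occupancy was measured by CUT&RUN, which directs a nuclease to antibody-bound protein in permeabilised cells and sequences the released DNA. The groups were whole, dissociated retinas of the mouse strain C57BL/6J, at 4 ages named for the day after birth (P2, P4, P10, P28), with 250000 cells per experiment and no genotype or treatment. The cells were not sorted, so fewer cells with NRL at a site and less NRL per cell cannot be told apart in any value below.

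The spliceosome removes introns from pre-mRNA. The U1 particle marks the 5′ splice site, U2AF and the U2 particle mark the 3′ splice site and the branch point, and the U4/U6.U5 tri-snRNP then joins and is rearranged into the catalytic form. SR proteins and hnRNPs bind exons and introns and set which splice sites are used. Photoreceptors are known for their dependence on this machinery, since dominant mutations in several human tri-snRNP genes cause retinitis pigmentosa, a rod degeneration.

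Values were available for 8 libraries, 2 per age. They are given as RPKM, reads in a peak scaled to the peak's own width and to a library scale, rebuilt from the deposited table as described under the processing. Reads inside all peaks were fewest in P2 replicate 4 (49430) and most in P10 replicate 4 (227692), and the median splicing factor peak held 4 to 15 reads per library. At the median width of these peaks 3 reads correspond to 1.01 to 1.54 RPKM, so many single values rest on few reads. The 2 libraries of P4 differed most in level, with 85740 and 150878 reads in peaks. Across the splicing factor peaks, log2 values of the 2 libraries of an age had r = 0.51 at both P2 and P4, 0.84 at P10 and 0.55 at P28. Among marker genes, 8 of 8 rod genes had an NRL peak, against 28.6% of all protein-coding genes. A peak was found at 0 of 5 Müller glia genes, 0 of 4 pigment epithelium genes and 0 of 5 microglia and vessel genes. Rlbp1 is in both the Müller glia and the pigment epithelium list. These counts do not measure which cells were present.

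Promoters carried most of the splicing factor peaks, and 4 of them show what the DNA under a peak looked like. Promoter windows of 300 bases, running from 250 before to 50 after the start of a gene, were taken from RefSeq (GRCm38.p6). It held 66 of the 79 genes, and for 50 of these a window lay under a peak of its own gene. Under a peak here means any overlap, which for the 50 ran from 112 bases (Hnrnpm) to all 300. Motifs were searched in the whole window, so some letters can lie outside the peak. The windows below, read 5′ to 3′ along the strand of the gene, are those of Snrpc, the strongest splicing factor peak, of Rbm45 and Rbm17, whose promoter peaks changed with age, and of Srsf2, whose peak was strong at every age. They were chosen after their values and letters had been seen. Capitals mark the letters TGCTGA (a Maf recognition core), TGANTCA (AP-1) and TGACGTCA (CRE), which bZIP factors are known to bind, searched on both strands.
Snrpc, chr17:27839837-27840136, + strand: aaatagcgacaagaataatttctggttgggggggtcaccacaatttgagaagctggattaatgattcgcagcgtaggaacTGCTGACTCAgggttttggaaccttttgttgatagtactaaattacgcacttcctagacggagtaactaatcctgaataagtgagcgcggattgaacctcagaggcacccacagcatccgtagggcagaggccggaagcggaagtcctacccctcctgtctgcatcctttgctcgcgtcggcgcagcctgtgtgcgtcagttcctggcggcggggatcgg
Rbm45, chr2:76369734-76370033, + strand: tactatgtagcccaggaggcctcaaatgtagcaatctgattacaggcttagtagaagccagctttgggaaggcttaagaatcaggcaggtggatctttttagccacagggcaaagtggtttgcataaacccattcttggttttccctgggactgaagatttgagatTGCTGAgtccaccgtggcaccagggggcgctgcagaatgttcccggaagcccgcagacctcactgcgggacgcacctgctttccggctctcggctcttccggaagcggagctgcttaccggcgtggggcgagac
Rbm17, chr2:11603150-11603449, - strand: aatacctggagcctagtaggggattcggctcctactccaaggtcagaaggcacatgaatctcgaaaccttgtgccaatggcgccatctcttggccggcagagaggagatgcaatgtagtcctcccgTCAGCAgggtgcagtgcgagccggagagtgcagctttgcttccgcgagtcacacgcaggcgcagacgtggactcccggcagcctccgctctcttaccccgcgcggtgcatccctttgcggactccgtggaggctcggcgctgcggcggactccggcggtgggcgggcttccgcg
Srsf2, chr11:116853045-116853344, - strand: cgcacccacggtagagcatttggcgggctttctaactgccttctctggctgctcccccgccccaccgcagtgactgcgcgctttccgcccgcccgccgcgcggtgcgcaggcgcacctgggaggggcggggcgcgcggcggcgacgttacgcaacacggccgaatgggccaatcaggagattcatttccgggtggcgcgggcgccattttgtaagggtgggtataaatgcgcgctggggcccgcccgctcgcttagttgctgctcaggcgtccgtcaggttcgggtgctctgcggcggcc
In the Snrpc window a TGCTGA began 170 bases before the start and ran into a TGACTCA that began 167 bases before it, so that both are read in the single run TGCTGACTCA. The same window held TAATCC, the letters bound by the photoreceptor factors CRX and OTX, 103 bases before the start and on the other strand 196 bases before it. The Rbm45 window held TGCTGA 84 bases before the start, and the Rbm17 window held its reverse complement 124 bases before the start. All of these matches lay under the peak. The Srsf2 window held none of the 3 bZIP motifs.

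Across the 50 splicing factor windows under a peak, 7 (14%) held TGCTGA, against 16.1% of the 4310 windows under any peak and 19.5% of all 32851 windows. Both sets under peaks keep 1 window per gene, while the set of all windows keeps every window of a gene, so its shares are not strictly alike. TGANTCA was found in 1 splicing factor window (2.0%), against 4.01% and 7.81%, and TGACGTCA in 2 (4.0%), against 5.03% and 1.79%. In all, 9 of the 50 windows held at least 1 of these 3 motifs, which can overlap. TAATCC stood in 6 windows (12%), against 6.59% under any peak and 7.06% overall. Motifs of housekeeping promoters were more frequent in both sets of windows under peaks than overall. CCGGAAG (ETS factors) stood in 30.0% of the splicing factor windows, against 23.9% and 8.86%. CCAAT stood in 64.0%, against 51.1% and 37.4%, and GGGCGG (the GC box) in 62.0%, against 70.8% and 35.7%. GCGCATGC, from the NRF1 site, stood in 8.0%, against 7.31% and 2.71%. Median GC content was 59.7% in the splicing factor windows, 61.7% in windows under any peak and 52.7% overall. A match describes letters in these windows and not a site in use.

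**Figure D1:**
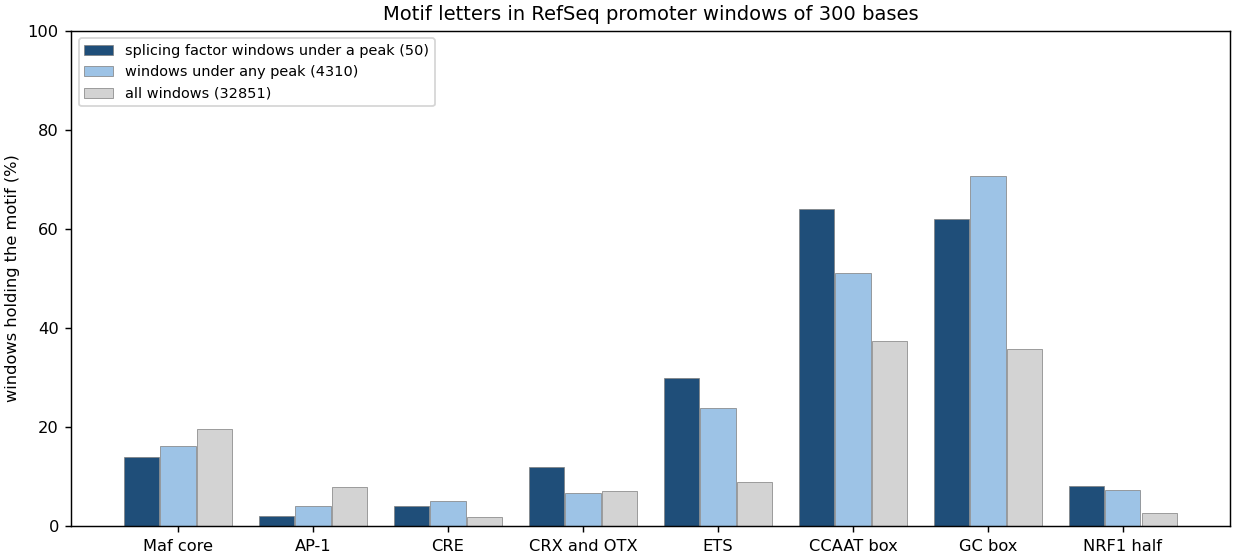
Percentage of 300-base RefSeq promoter windows that hold each of 8 motifs on either strand, in 50 splicing factor windows under a peak (dark blue), 4310 windows under any peak (light blue) and all 32851 windows (grey). CCAAT, at 64.0%, and the GC box, at 62.0%, are the most frequent motifs in the splicing factor windows, and the Maf core is in 14%.

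Splicing factor genes were often occupied, and mostly at the promoter. Of 127 RefSeq protein-coding genes that match the same family names, 78 (61.4%) had at least 1 peak, against 6254 of 21900 protein-coding genes (28.6%). A peak within 1 kb of a transcription start was assigned to 67 (52.8%) of them, against 20.8% of all protein-coding genes. The remaining symbol with a peak, Rbm3os, is a non-coding RNA beside Rbm3. The 49 genes without an assigned peak included Prpf3, Prpf4, Prpf31, Sf3b3, Srsf5, Srsf6 and Hnrnpa1. Of the 49, 41 had a promoter in the RefSeq table, and for 7 of these a peak lay within 1 kb of the start but was assigned to a neighbour, among them Hnrnpa1 (assigned to Cbx5), Prpf4 (Cdc26), Sf3a1 (Ccdc157) and Srsf5 (Gm20337). These comparisons are descriptions, since expression level and promoter type of the families were not matched.

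By position, 76 of the 102 peaks (74.5%) lay within 1 kb of a start, against 56.8% of all peaks, and 60 (58.8%) overlapped the start itself, against 45.8%. The other 26 comprised 11 intergenic peaks, 9 in introns, 5 in exons or UTRs and 1 downstream of a gene. Of these 26, 5 were more than 50 kb from the start of the gene they were assigned to. Distances are those of the authors' annotation, to the nearest start, so that peaks of the same gene can be measured from different starts. Peak widths ran from 99 to 755 bp, with a median of 369.5 bp against 322 bp over all peaks. The median of mean RPKM was 4.25 for the splicing factor peaks and 4.05 for all peaks, and single peaks averaged 1.34 to 15.5 RPKM. Of the promoter peaks, 12 also lay within 1 kb of the start of another protein-coding gene, such as Snrnp200 (1810024B03Rik), Hnrnpk (Rmi1), Hnrnpa2b1 (Cbx3), Sf3a2 (Plekhj1) and Srsf2 (Mfsd11), and these cannot be given to either gene alone.

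Signal at the splicing factor peaks was highest at P10. Their median RPKM was 2.34 and 2.09 in the P2 libraries, 2.33 and 4.26 in the P4 libraries, 6.69 and 6.10 in the P10 libraries and 4.41 and 4.07 in the P28 libraries. The P10 libraries were the 2 highest, the P28 libraries stood close to the higher P4 library, and the lower P4 library stood at the P2 level. The mean was highest at P10 for 74 of the 102 peaks (72.5%, against 70.4% of all peaks), at P28 for 22, at P4 for 5 and at P2 for 1. The authors' peak list of P10 was the longest and overlapped 88 of the 102 peaks (86.3%, against 83.2% of all peaks). Peaks present through that list can stand high at P10 by selection. This limit holds for every comparison with P10 below, and its size was not tested. All peaks together moved in the same way: their median difference in log2(RPKM + 1) was 0.73 for P10 against P4, -0.69 for P28 against P10 and 0.57 for P28 against P2, while that of the splicing factor peaks was 0.78, -0.56 and 0.57. How much of this shift is the library scale was not tested. Each splicing factor call between 2 ages described below is therefore also given after every library was centred on its own median over all peaks. Changes that were not called, and the F test of a single peak, are given without centring.

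**Figure D2:**
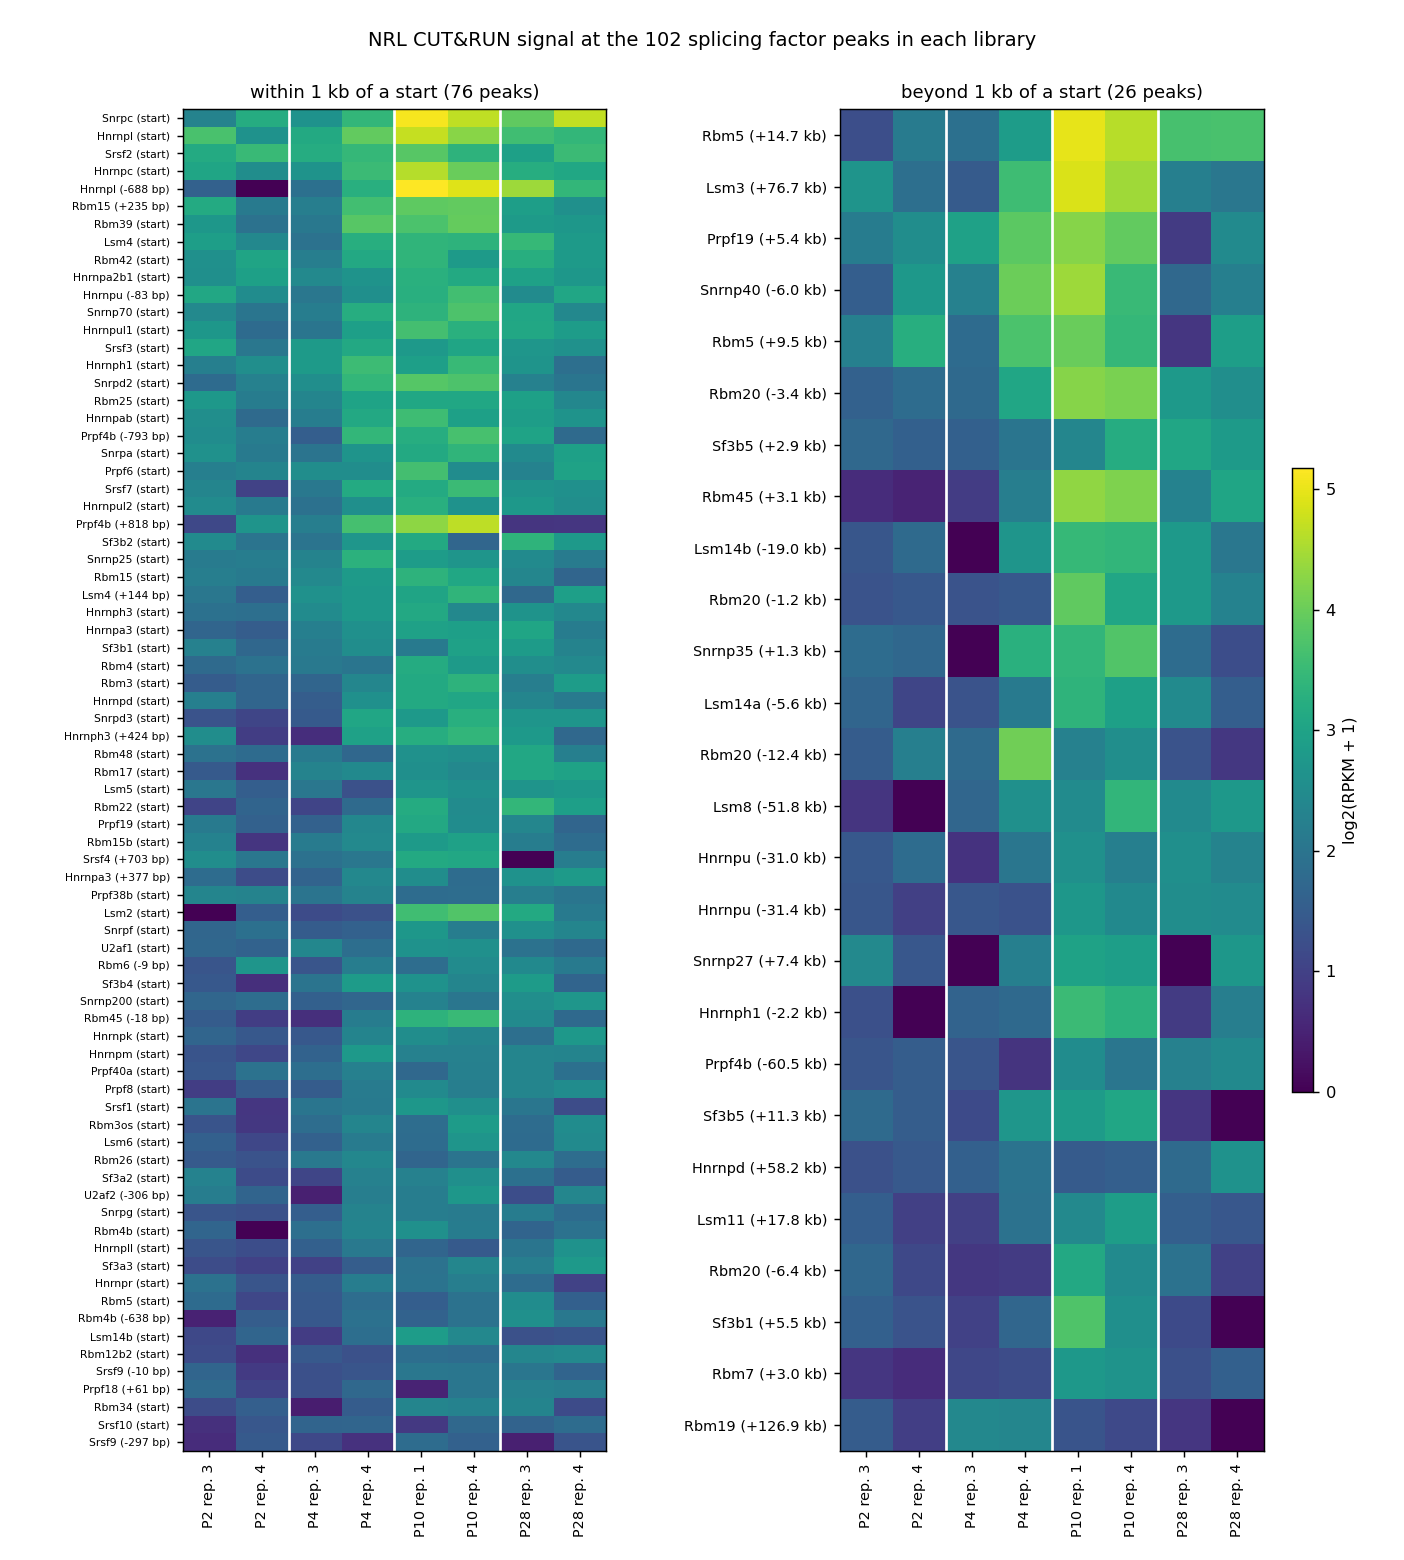
Signal as log2(RPKM + 1), in colour, at each of the 102 splicing factor peaks (rows, with the distance from the nearest start in brackets) in the 8 libraries (columns, by age). Rows are ordered by mean signal within peaks up to 1 kb from a start (left) and beyond (right), and the 2 P10 columns hold most of the brightest cells.

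The authors deposited 1 peak list per age. The P2, P4, P10 and P28 lists overlapped 19, 32, 88 and 49 of the 102 peaks (18.6, 31.4, 86.3 and 48.0%), against 13.5, 35.0, 83.2 and 38.6% of all peaks. The lists differ in length, and among the 1221 strongest peaks of each list the counts were 19, 10, 10 and 18 (18.6, 9.8, 9.8 and 17.6%, against 13.5, 13.6, 13.6 and 13.6% of all peaks). Only the P10 list held 39 of the peaks (38.2%, against 41.9% of all peaks), and only the P28 list held 9 (8.82%, against 8.7%). All 4 lists held 13 (12.7%, against 7.41%), and these 13 all lay within 1 kb of a start. They were the peaks of Snrpc and Snrnp70 of the U1 particle, Srsf2 and Srsf3, Hnrnpa2b1, Hnrnpc, Hnrnpl and Hnrnpul1, and Rbm4, Rbm15, Rbm25, Rbm39 and Rbm42. With 1 list per age these shares have no replicate error.

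**Figure D3:**
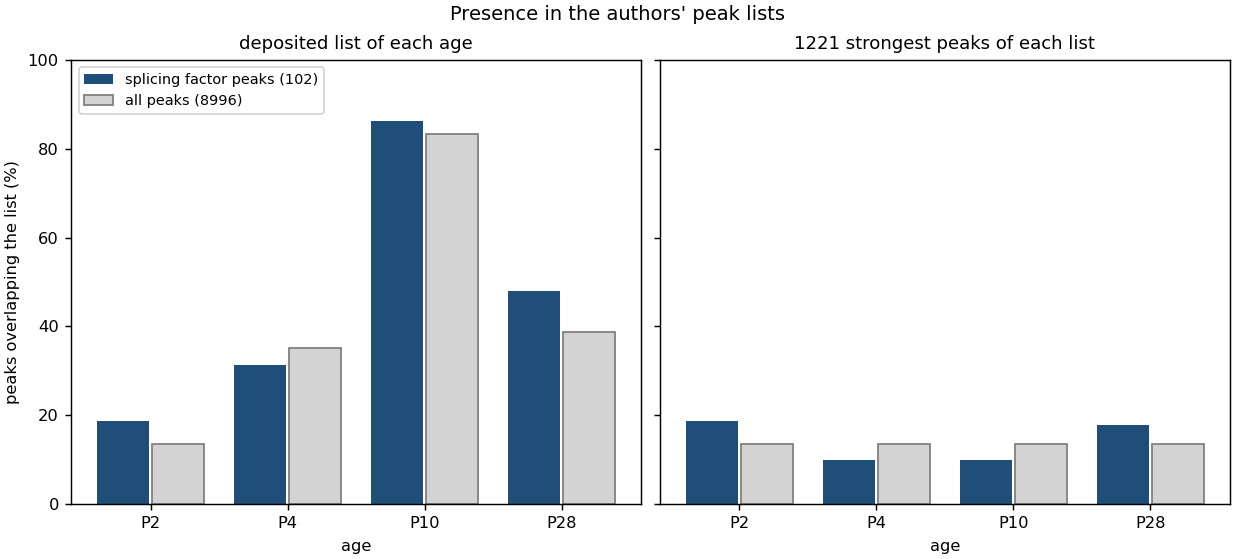
Percentage of the 102 splicing factor peaks (blue) and of all 8996 peaks (grey) that overlap the authors' list of each age, for whole lists (left) and for the 1221 strongest peaks of each list (right). In the whole lists the blue bars stand at 18.6, 31.4, 86.3 and 48.0% from P2 to P28.

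Changes with age were tested with limma on log2(RPKM + 1) over all 8996 peaks, with a Benjamini-Hochberg adjusted p under 0.05 as a call. Counts from fits without 1 library, and the count for any age after centring, are given for the splicing factor peaks alone. Without the share over all peaks they cannot show whether such movement is particular to the splicing factor peaks. At any age (F test) 31 of the 102 splicing factor peaks (30.4%) varied, against 45.9% of all peaks. The count was 13 after centring, 12 without P10 replicate 1 and 17 without P10 replicate 4. Within 1 kb of a start 13 of 76 did (17.1%, against 28.1%), and beyond 1 kb 18 of 26 (69.2%, against 69.2%). Between P4 and P2 limma called 0 splicing factor peaks and 0 of all peaks (0%). At an unadjusted p under 0.05, 8 were higher at P4 (7.84%, against 14.4% of all peaks) and 0 were lower (against 0.778%), and limma-voom on the recovered reads also called 0. Leaving out 1 library gave 3 calls without P2 replicate 3, 4 without P4 replicate 3 and 1 without either P28 library, all higher at P4.

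Between P10 and P4, 16 splicing factor peaks rose (15.7%, against 15.6% of all peaks) and 0 fell (against 1.51%). Within 1 kb of a start 5 of 76 rose (6.58%, against 7.72%), and beyond it 11 of 26 (42.3%, against 26%). After centring, 2 were higher, the peaks of Rbm45 and Rbm5 (against 2.88% of all peaks), and 1 was lower, a peak assigned to Rbm19 (against 3.26%). The count moved with single libraries of the 2 ages: it became 0 without P4 replicate 3 and 38 without the other P4 library, and 2 without P10 replicate 1 and 6 without the other P10 library.

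Between P28 and P10, 15 splicing factor peaks fell (14.7%, against 20.7% of all peaks) and 0 rose (against 1.29%). Within 1 kb of a start 4 of 76 fell (5.26%, against 8.95%), and beyond it 11 of 26 (42.3%, against 36%). After centring, 5 were lower, peaks of Lsm3, Prpf19, Prpf4b, Sf3b1 and Sf3b5 (against 8.56%), and 1 was higher, that of Hnrnpll (against 4.28%). Only 2 were left on dropping P10 replicate 1, and 6 on dropping either P10 replicate 4 or P28 replicate 3.

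Between P28 and P2, 9 splicing factor peaks rose (8.82%, against 9.64% of all peaks) and 0 fell (against 3%). Within 1 kb of a start 6 of 76 rose (7.89%, against 7.83%), and beyond it 3 of 26 (11.5%, against 12%). After centring, 5 were higher (4.9%, against 3.27%), peaks of Hnrnpl, Lsm8, Rbm17, Rbm45 and Rbm5, and 2 were lower, peaks of Prpf4b and Sf3b5 (against 7.26%). Without P28 replicate 3 the test called 3 higher and 0 lower, and without P28 replicate 4 it called 5 higher and 2 lower. The difference in share between splicing factor peaks and all peaks was not tested in any comparison.

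**Figure D4:**
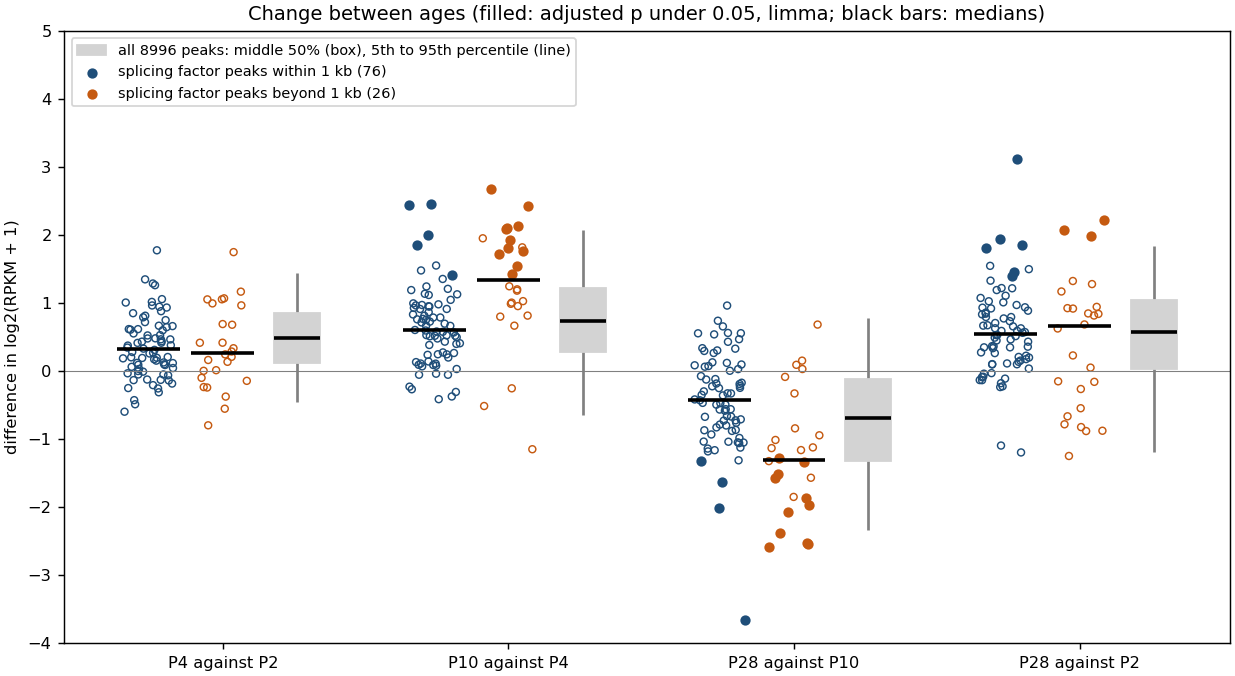
Difference in log2(RPKM + 1) for 4 comparisons of ages, later age minus earlier, at splicing factor peaks within 1 kb of a start (blue, 76) and beyond (orange, 26), beside the spread of all 8996 peaks (grey box and line). Filled points passed limma at an adjusted p under 0.05, and the black bars are medians, which for all peaks stand at 0.48, 0.73, -0.69 and 0.57.

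The U1 particle held the strongest splicing factor peak. It covered the start of Snrpc (chr17:27839772-27840280), which encodes the U1 protein that steadies pairing with the 5′ splice site. Signal there was 3.96 and 8.22 RPKM at P2, 5.24 and 9.82 at P4, 33.4 and 24.5 RPKM at P10, and 14 and 25.1 at P28. Both P10 libraries stood above every P2 and P4 library, and the P28 libraries overlapped the lower P10 library. The change was 1.85 ± 0.56 (log2, SE) for P10 against P4 (adjusted p = 0.026, limma), and 1.14 after centring (adjusted p = 0.13). The call also ended without P4 replicate 3 (adjusted p = 0.14), P10 replicate 1 (0.24) or P10 replicate 4 (0.11). For P28 against P2 it was 1.55 ± 0.56 (adjusted p = 0.067). The promoter peaks of the other U1 proteins, Snrpa and Snrnp70, passed no test and ranged from 2.97 to 9.49 RPKM and from 3.01 to 12.3 RPKM over the 8 libraries.

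Peaks of the U2 particle and of U2AF were weaker, averaging 2.73 to 5.19 and 3.07 to 3.37 RPKM. The highest mean of the 8 U2 peaks was at the start of Sf3b2, an SF3b subunit at the branch point, with 4.60 and 2.98 RPKM at P2, 2.98 and 5.59 at P4, 7.82 and 2.28 RPKM at P10, and 9.30 and 5.98 at P28. Its libraries overlapped between P2, P4 and P10, and it passed no test. At the start of Sf3a3, an SF3a subunit, signal was 1.31 and 0.991 RPKM at P2, 0.992 and 1.86 at P4, 2.87 and 4.22 RPKM at P10, and 3.63 and 5.97 at P28. Both P28 libraries lay above both P2 libraries, and the change was 1.40 ± 0.46 (adjusted p = 0.044, limma). It was 0.82 after centring (adjusted p = 0.24), and the call ended in 6 of 8 fits that left out 1 library. Those were without P2 replicate 3 (adjusted p = 0.065) or 4 (0.16), P10 replicate 1 (0.069) or 4 (0.072), and P28 replicate 3 (0.06) or 4 (0.24). The SF3b subunits Sf3b1, which cradles the branch point, and Sf3b5 each had a call at a peak away from the promoter. The peak in the 3′ UTR of Sf3b1 had 2.00 and 1.51 RPKM at P2, 1.01 and 2.27 at P4, 12.5 and 4.95 RPKM at P10, and 1.23 and 0 at P28. It held 15 reads at P10, against 3 at P4 and 1 at P28. Its rise between P10 and P4 was 1.81 ± 0.51 (adjusted p = 0.018, limma; 0.23 after centring) and ended without P4 replicate 3 (0.24) or P10 replicate 1 (0.29). Its fall between P28 and P10 was -2.59 ± 0.51 (adjusted p = 0.0014; 0.023 after centring) and ended without P10 replicate 1 (0.061). The intergenic peak of Sf3b5 had 0.759 and 0 RPKM at P28, against 6.18 and 7.34 RPKM at P10. It fell from 20 reads at P10 to 1 at P28. That fall, -2.54 ± 0.51 (adjusted p = 0.0014; 0.017 after centring), held in all 8 fits that left out 1 library, with adjusted p up to 0.022. The other peaks of these 2 genes did not fall. The Sf3b1 promoter peak had 6.12 and 3.98 RPKM at P28, against 3.35 and 6.83 RPKM at P10 (0.03 ± 0.50, adjusted p = 0.97, limma). The 5′ UTR peak of Sf3b5 had 7.40 and 6.08 RPKM at P28, against 4.18 and 8.27 RPKM at P10 (0.15 ± 0.49, adjusted p = 0.84). U2af1, which reads the last bases of the intron, had 2.33 and 2.11 RPKM at P2, 4.23 and 2.64 at P4, 5.25 and 5.08 RPKM at P10, and 2.87 and 2.43 at P28. Its P10 libraries were the highest of the 8, and no comparison passed the test.

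Of the 6 listed tri-snRNP genes linked to retinitis pigmentosa, 3 had an assigned peak, each at the promoter. None of these 3 peaks passed a test. Over all peaks within 1 kb of a start, 28.1% varied at any age by the F test. With 3 peaks, 0 calls cannot set these genes apart from other promoters. Prpf8, the scaffold of the catalytic core, had 0.913 and 1.84 RPKM at P2, 1.84 and 3.45 at P4, 4.57 and 3.62 RPKM at P10, and 4.12 and 4.75 at P28. Snrnp200, the helicase that unwinds U4 from U6, had 2.27 and 2.58 RPKM at P2, 2.01 and 2.26 at P4, 3.91 and 3.10 RPKM at P10, and 4.90 and 5.54 at P28. At both genes the P28 and P10 libraries lay above all P2 and P4 libraries. The change for P28 against P2 was 1.22 ± 0.46 for Prpf8 (adjusted p = 0.08, limma) and 0.86 ± 0.45 for Snrnp200 (adjusted p = 0.2). Prpf6, which bridges U5 and U4/U6, had 3.72 and 4.01 RPKM at P2, 4.82 and 4.82 at P4, 11.3 and 4.74 RPKM at P10, and 3.92 and 6.91 at P28. Its P10 libraries differed by more than those of any other age, and P28 against P2 gave 0.36 ± 0.53 (adjusted p = 0.65).

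The largest fall of all splicing factor peaks was in an intron of Prpf4b, the kinase that phosphorylates tri-snRNP proteins, 818 bp from the nearest start (chr13:34892942-34893152). Signal was 1.19 and 5.41 RPKM at P2, 3.61 and 11.5 at P4, 18.7 and 24.2 RPKM at P10, and 0.734 and 0.776 at P28. The P10 libraries were the highest of the 8 and the P28 libraries the lowest, with 1 read in each P28 library. For P28 against P10 the change was -3.67 ± 0.57 (adjusted p = 0.00034, limma), and -3.06 after centring (adjusted p = 0.0038). The ratio of scaled reads, 2 against 66, was 28.9-fold lower at P28 (exact 95% interval 7.68 to 243). The call held in all 8 fits that left out 1 library, with adjusted p from 1.2e-06 to 0.0042. The other Prpf4b peaks did not fall in this way. The peak at -793 bp had 7.01 and 2.47 RPKM at P28, against 8.32 and 11.8 RPKM at P10 (-1.05 ± 0.59, adjusted p = 0.2). The exonic peak at -60516 bp had 3.84 and 4.47 RPKM at P28, against 4.69 and 3.10 RPKM at P10 (0.09 ± 0.45, adjusted p = 0.9).

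Snrnp40, a U5 protein, also fell at P28, at an intronic peak at -6019 bp. Signal was 1.91 and 5.77 RPKM at P2, 3.85 and 15.1 at P4, 20.3 and 10.4 RPKM at P10, and 2.35 and 3.72 at P28. Both P28 libraries lay below both P10 libraries, but P4 replicate 4 reached the P10 range. The change for P28 against P10 was -1.97 ± 0.60 (adjusted p = 0.023, limma), and -1.37 after centring (adjusted p = 0.094). The call ended without P10 replicate 1 (adjusted p = 0.23) or P28 replicate 3 (0.11).

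The minor spliceosome, which removes the rare U12-type introns, had 2 genes with a peak. At Snrnp35, a U11 and U12 protein, an intronic peak 1329 bp from the start had 2.57 and 2.33 RPKM at P2, 0 and 8.74 at P4, 9.65 and 12.7 RPKM at P10, and 2.53 and 1.34 at P28. The P28 libraries lay far below the P10 libraries, and the 2 P4 libraries disagreed. The change for P28 against P10 was -2.07 ± 0.70 (adjusted p = 0.042, limma), and -1.47 after centring (adjusted p = 0.14). The call ended in 5 fits: without P2 replicate 3 (adjusted p = 0.063) or 4 (0.06), P10 replicate 1 (0.091) or 4 (0.13), or P28 replicate 4 (0.055). Snrnp25 carried a promoter peak of 3.43 to 8.98 RPKM that passed no test.

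Of 15 peaks at 13 Sm and LSm genes, 4 rose between P10 and P4 (26.7%, against 15.6% of all peaks), 3 fell between P28 and P10 (20%, against 20.7%) and 2 were higher at P28 than at P2 (13.3%, against 9.64%). Lsm2, Lsm3 and Lsm8 encode parts of the ring that binds the end of U6 RNA, Lsm8 being the part that keeps it nuclear. An intergenic peak 76726 bp from the start of Lsm3 had the highest mean of the group. It had 5.40 and 2.72 RPKM at P2, 1.81 and 10.9 at P4, 28.5 and 20.8 RPKM at P10, and 3.69 and 3.12 at P28. Signal stood apart at P10, and the other ages overlapped each other. The change was 2.13 ± 0.60 for P10 against P4 (adjusted p = 0.019, limma) and -2.53 ± 0.60 for P28 against P10 (adjusted p = 0.0052). After centring the values were 1.42 (adjusted p = 0.092) and -1.93 (adjusted p = 0.021). The rise ended without P4 replicate 3 (adjusted p = 0.23), P10 replicate 1 (0.16) or P10 replicate 4 (0.069), and the fall without P10 replicate 1 (0.066). At this distance the link to Lsm3 is only the authors' nearest-gene assignment.

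The Lsm2 promoter peak, the narrowest of the 102 at 99 bp, had 0 and 1.92 RPKM at P2, 1.28 and 1.44 at P4, 11.1 and 12.6 RPKM at P10, and 7.82 and 3.31 at P28. The P2 and P4 libraries held at most 1 read each. Scaled reads were 8.81-fold higher at P10 than at P4 (17 reads against 2, exact 95% interval 2.09 to 78.6) and 7.35-fold higher at P28 than at P2 (7 reads against 1, interval 0.945 to 331). Both passed limma (adjusted p = 0.0038 and 0.023), but not after centring (0.068 and 0.16). The first call ended without P4 replicate 3 (adjusted p = 0.082) and the second without P2 replicate 3 (0.26) or P28 replicate 3 (0.17). An intergenic peak at -51789 bp from Lsm8 had 0.745 and 0 RPKM at P2, 2.25 and 5.07 at P4, 4.66 and 9.60 RPKM at P10, and 4.58 and 5.81 at P28. The P2 libraries were the lowest of the 8, and scaled reads were 11.6-fold higher at P28 (11 reads against 1, interval 1.68 to 497). The call for P28 against P2 (adjusted p = 0.0052, limma) held after centring (0.028) and ended without P2 replicate 4 (0.06). The promoter peak of Snrpd2, part of the Sm ring, had 3.82 and 3.03 RPKM at P28, against 13.1 and 12.3 RPKM at P10. That fall, -1.64 ± 0.52 (adjusted p = 0.027; 0.078 after centring), ended without P10 replicate 1 (0.17), P10 replicate 4 (0.13), P28 replicate 3 (0.092) or P28 replicate 4 (0.17). The remaining calls of the group were at Lsm14a and Lsm14b, which encode proteins of cytoplasmic RNA granules rather than splicing factors, with adjusted p from 0.03 to 0.048 and none past the threshold after centring. The rises at Lsm14a and Lsm14b ended without P4 replicate 3 (0.34 and 0.45), P10 replicate 1 (0.28 and 0.13) or P10 replicate 4 (0.13 and 0.092), and the fall at the Lsm14b promoter without any 1 library of P10 or P28 (0.12 to 0.3).

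Prpf19, the ubiquitin ligase needed to activate the spliceosome, had a peak at the promoter and another in its 3′ UTR. The latter lay 5400 bp from its nearest annotated start, which is not the promoter start. The 3′ UTR peak had 3.53 and 4.80 RPKM at P2, 6.76 and 13.6 at P4, 17.7 and 14.3 RPKM at P10, and 0.868 and 4.59 at P28. The P28 libraries lay below every P4 and P10 library. The change for P28 against P10 was -2.39 ± 0.57 (adjusted p = 0.0052, limma), and -1.79 after centring (adjusted p = 0.03). The call ended without P10 replicate 1 (adjusted p = 0.067) or P28 replicate 3 (0.15). The promoter peak had 4.20 and 2.22 RPKM at P28, against 7.69 and 4.73 RPKM at P10, and did not pass the test.

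SR proteins, which bind exonic enhancers and recruit U1 and U2AF, had 8 peaks at 7 genes, and 1 call, a fall between P28 and P10 (12.5%, against 20.7% of all peaks). The strongest was at the start of Srsf2, with 7.91 and 10.3 RPKM at P2, 8.25 and 9.89 at P4, 13.3 and 9.18 RPKM at P10, and 6.71 and 10.6 at P28. The libraries of all 4 ages overlapped, and P28 against P2 gave -0.08 ± 0.53 (adjusted p = 0.93, limma). The call was at an intronic peak of Srsf4, 703 bp from the nearest start, with 4.84 and 3.14 RPKM at P2, 2.79 and 3.14 at P4, 7.79 and 7.54 RPKM at P10, and 0 and 3.60 at P28. The 2 P10 libraries were the highest, and P28 replicate 3 held no read. The change for P28 against P10 was -2.01 ± 0.56 (adjusted p = 0.015), and -1.41 after centring (adjusted p = 0.12). The call ended without P10 replicate 1 (adjusted p = 0.087), P10 replicate 4 (0.069) or P28 replicate 3 (0.38).

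Among the hnRNPs, 22 peaks at 15 genes, the largest rise was at a peak of Hnrnpl, a regulator that binds CA-rich RNA. The peak (chr7:28807670-28807853) lay at -688 bp from its nearest annotated start. Signal was 2.05 and 0 RPKM at P2, 2.76 and 8.54 at P4, 35.1 and 29.2 RPKM at P10, and 20.2 and 9.79 at P28. Every P10 and P28 library stood above every P2 and P4 library. The change was 2.46 ± 0.61 for P10 against P4 (adjusted p = 0.0094, limma) and 3.11 ± 0.61 for P28 against P2 (adjusted p = 0.002). After centring these were 1.75 (adjusted p = 0.057) and 2.53 (adjusted p = 0.006). Scaled reads were 12.3-fold higher at P28 than at P2 (35 reads against 3, exact 95% interval 3.86 to 62.3). The second call held in all 8 fits that left out 1 library, with adjusted p up to 0.046, but ended with a pseudocount of 0.1 (0.064) and on the values as deposited (0.05). The first ended without P4 replicate 3 (adjusted p = 0.16), P10 replicate 1 (0.093) or P10 replicate 4 (0.053).

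A second Hnrnpl peak (chr7:28810362-28810912), over a different annotated start, followed another course. It had 11.9 and 5.18 RPKM at P2, 7.84 and 14.3 at P4, 25.5 and 18.1 RPKM at P10, and 11 and 9.81 at P28. It was in the lists of all 4 ages, its P28 and P2 libraries overlapped, and it passed no test of 2 ages. Hnrnpu, a nuclear scaffold protein, had 3 peaks and no call between 2 ages. The peak at -83 bp had 7.56 and 4.76 RPKM at P2, 3.17 and 5.00 at P4, 8.67 and 11.2 RPKM at P10, and 4.65 and 7.37 at P28. The peak at -31426 bp had 1.62 and 0.978 RPKM at P2, 1.63 and 1.47 at P4, 5.67 and 4.49 RPKM at P10, and 4.78 and 4.63 at P28, and varied over age (F test, adjusted p = 0.016). At this peak every P10 and P28 library stood above every P2 and P4 library. The peak at -31029 bp beside it had 5.00 and 3.96 RPKM at P28, against 1.69 and 2.56 RPKM at P2 (0.82 ± 0.49, adjusted p = 0.25). An intergenic peak of Hnrnph1, a regulator that binds G-rich RNA, had 1.41 and 0 RPKM at P2, 2.13 and 2.39 at P4, 10.6 and 9.06 RPKM at P10, and 0.865 and 3.66 at P28. It rose between P10 and P4 (1.73 ± 0.51, adjusted p = 0.024; 0.3 after centring) and fell between P28 and P10 (-1.87 ± 0.51, adjusted p = 0.012; 0.12 after centring). The rise ended without any 1 of the 4 libraries of the 2 ages (adjusted p 0.2 and 0.057 without P4 replicate 3 and 4, 0.16 and 0.099 without P10 replicate 1 and 4). The fall ended without P10 replicate 1 (0.1), P10 replicate 4 (0.061) or P28 replicate 3 (0.18).

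The Rbm family had the most peaks, 29 at 21 genes. Of these, 8 rose between P10 and P4 (27.6%, against 15.6% of all peaks), 4 fell between P28 and P10 (13.8%, against 20.7%) and 5 were higher at P28 than at P2 (17.2%, against 9.64%). The family is named for an RNA recognition motif, and several members are not splicing factors. Rbm7 serves RNA decay, and its intronic peak had 1.16 and 1.30 RPKM at P4, 5.75 and 5.31 RPKM at P10 and 1.41 and 1.99 RPKM at P28. Its rise (1.55 ± 0.44, adjusted p = 0.019, limma; 0.27 after centring) ended without P4 replicate 3 (0.11), P10 replicate 1 (0.17) or P10 replicate 4 (0.13). Its fall (-1.28 ± 0.44, adjusted p = 0.039; 0.29 after centring) ended without any 1 library of P10 or P28 (0.095 to 0.24). Rbm15 guides RNA methylation and Rbm19 serves ribosome assembly. The largest rise between P10 and P4 of all splicing factor peaks was in an intron of Rbm45, an RNA-binding protein of the nervous system, 3064 bp from the start (chr2:76373048-76373480). Signal was 0.582 and 0.439 RPKM at P2, 0.880 and 3.63 at P4, 18.9 and 17.0 RPKM at P10, and 3.93 and 7.18 at P28. The P10 libraries stood far above all others, and the P28 libraries above the P2 and P4 libraries. The changes were 2.68 ± 0.51 for P10 against P4 (adjusted p = 0.0019, limma), -1.58 ± 0.51 for P28 against P10 (0.029) and 2.07 ± 0.51 for P28 against P2 (0.0094). After centring they were 1.97 (adjusted p = 0.013), -0.97 (0.12) and 1.49 (0.03). The P10 against P4 call ended with a pseudocount of 0.1 (adjusted p = 0.061, limma) and with the replicate number as a block (0.069). Scaled reads were 8.21-fold higher at P10 than at P4 (111 reads against 14) and 10.5-fold higher at P28 than at P2 (30 reads against 3, exact 95% interval 3.27 to 53.8). The rise ended without P4 replicate 3 (adjusted p = 0.052) and the P28 and P2 difference without P28 replicate 4 (0.077). The fall ended without P10 replicate 1 (0.16), P10 replicate 4 (0.11) or P28 replicate 3 (0.21). The Rbm45 promoter peak, whose window is printed above, had 1.84 and 0.928 RPKM at P2, 0.619 and 3.48 at P4, 9.22 and 10.3 RPKM at P10, and 4.53 and 2.40 at P28. It also rose between P10 and P4 (2.00 ± 0.51, adjusted p = 0.011; 0.094 after centring), a call that ended without P4 replicate 3 (0.2), P10 replicate 1 (0.071) or P10 replicate 4 (0.079).

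Rbm5, a splicing regulator of apoptosis genes, had 3 peaks with different courses. An intergenic peak (chr9:107729295-107729570) lay 14664 bp from its nearest annotated start, which is not the one under the promoter peak (chr9:107770413-107771068). This intergenic peak had 1.37 and 3.45 RPKM at P2, 2.76 and 6.21 at P4, 30.8 and 23.5 RPKM at P10, and 11.8 and 11.9 at P28. The P10 libraries were highest, the P28 libraries next, and the P2 and P4 libraries overlapped. The change was 2.42 ± 0.55 for P10 against P4 (adjusted p = 0.0051, limma; 0.023 after centring) and 1.98 ± 0.55 for P28 against P2 (0.02; 0.039 after centring). The first call ended without P4 replicate 3 (adjusted p = 0.055) or P10 replicate 1 (0.089), and the second without P2 replicate 3 (0.17), P28 replicate 3 (0.09) or P28 replicate 4 (0.082). The intergenic peak at 9484 bp, measured from the same start as the one at 14664 bp, had 3.74 and 8.48 RPKM at P2 and 2.51 and 12 at P4. It had 14.8 and 9.88 RPKM at P10, and 0.767 and 6.48 at P28. The promoter peak had 2.50 and 1.16 RPKM at P2, 1.74 and 2.61 at P4, 1.92 and 2.85 RPKM at P10, and 4.72 and 2.00 at P28. Neither passed a test, and their libraries overlapped between most ages.

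Rbm17, a factor of 3′ splice site choice, differed from most peaks in that its P28 libraries were the highest. Its promoter peak had 1.76 and 0.665 RPKM at P2, 4.00 and 4.49 at P4, 4.96 and 4.36 RPKM at P10, and 7.58 and 6.87 at P28. The P2 libraries were the lowest and the P4 and P10 libraries overlapped. The change for P28 against P2 was 1.94 ± 0.47 (adjusted p = 0.0093, limma), and 1.36 after centring (adjusted p = 0.039). The call ended without P2 replicate 4 (adjusted p = 0.12) or P28 replicate 3 (0.052). The promoter of Rbm22, a protein of the catalytic spliceosome, had 1.08 and 2.17 RPKM at P2, 1.09 and 2.44 at P4, 8.08 and 4.62 RPKM at P10, and 9.71 and 6.53 at P28. Every P10 and P28 library stood above every P2 and P4 library. P28 against P2 gave 1.81 ± 0.49 (adjusted p = 0.018; 0.076 after centring), a call that ended without P2 replicate 3 (0.099) or P28 replicate 3 (0.11). P10 against P4 gave 1.42 ± 0.49 (adjusted p = 0.049, limma; 0.36 after centring), a call that ended without P4 replicate 3 (0.29), P10 replicate 1 (0.35) or P10 replicate 4 (0.11). Rbm12b2 had 1.28 and 0.643 RPKM at P2, 1.72 and 1.45 at P4, 2.66 and 2.53 RPKM at P10, and 4.19 and 4.42 at P28. Its P28 libraries were the highest, and P28 against P2 gave 1.46 ± 0.44 (adjusted p = 0.033, limma; 0.23 after centring). That call ended in 5 fits, without P2 replicate 4 (0.19), P10 replicate 1 (0.059) or 4 (0.06), or P28 replicate 3 (0.11) or 4 (0.12).

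Rbm20, the regulator of titin splicing in heart, had 4 intronic peaks, 3 of which rose between P10 and P4. The peaks at -1241 and -3355 bp, beginning at chr19:53791731 and chr19:53789584, were measured from the same annotated start. Those at -6448 and -12381 bp, beginning at chr19:53836600 and chr19:53830418, were measured from another. The peak at -1241 bp had 1.49 and 1.69 RPKM at P2, 1.51 and 1.69 at P4, 14 and 7.40 RPKM at P10, and 5.98 and 3.89 at P28. The P2 and P4 libraries were alike and the P10 libraries highest (P10 against P4, 2.11 ± 0.48, adjusted p = 0.0052, limma; 0.06 after centring). The peak at -3355 bp had 2.04 and 2.57 RPKM at P2, 2.40 and 7.33 at P4, 17.9 and 16.5 RPKM at P10, and 5.86 and 4.87 at P28. It rose between P10 and P4 (1.77 ± 0.53, adjusted p = 0.025; 0.12 after centring) and fell between P28 and P10 (-1.52 ± 0.53, adjusted p = 0.043; 0.12 after centring). The peak at -6448 bp rested on 14 reads at P10 against 2 at P4, a 7.25-fold difference (exact 95% interval 1.67 to 65.7, adjusted p = 0.0087; 0.14 after centring). At P28 it held 4 reads, against 14 at P10, and this fall passed limma too (adjusted p = 0.046; 0.31 after centring). The peak at -12381 bp differed: it had 1.83 and 3.69 RPKM at P2, 2.47 and 15.6 at P4, 3.82 and 4.85 RPKM at P10, and 1.5 and 0.795 at P28, so that 1 P4 library was the highest, and it passed no test. Each of these calls ended without P10 replicate 1, with adjusted p of 0.12 at -1241 bp, 0.17 and 0.22 at -3355 bp, and 0.15 and 0.36 at -6448 bp. The 3 rises also ended without P4 replicate 3, with adjusted p of 0.057, 0.18 and 0.1. Without P10 replicate 4 the calls at -3355 bp (0.13 and 0.16) and the fall at -6448 bp (0.099) ended. The fall at -3355 bp further ended without P28 replicate 3 (0.12) or 4 (0.2), and the fall at -6448 bp without P28 replicate 4 (0.37) or either P4 library (0.051 each).

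**Figure D5:**
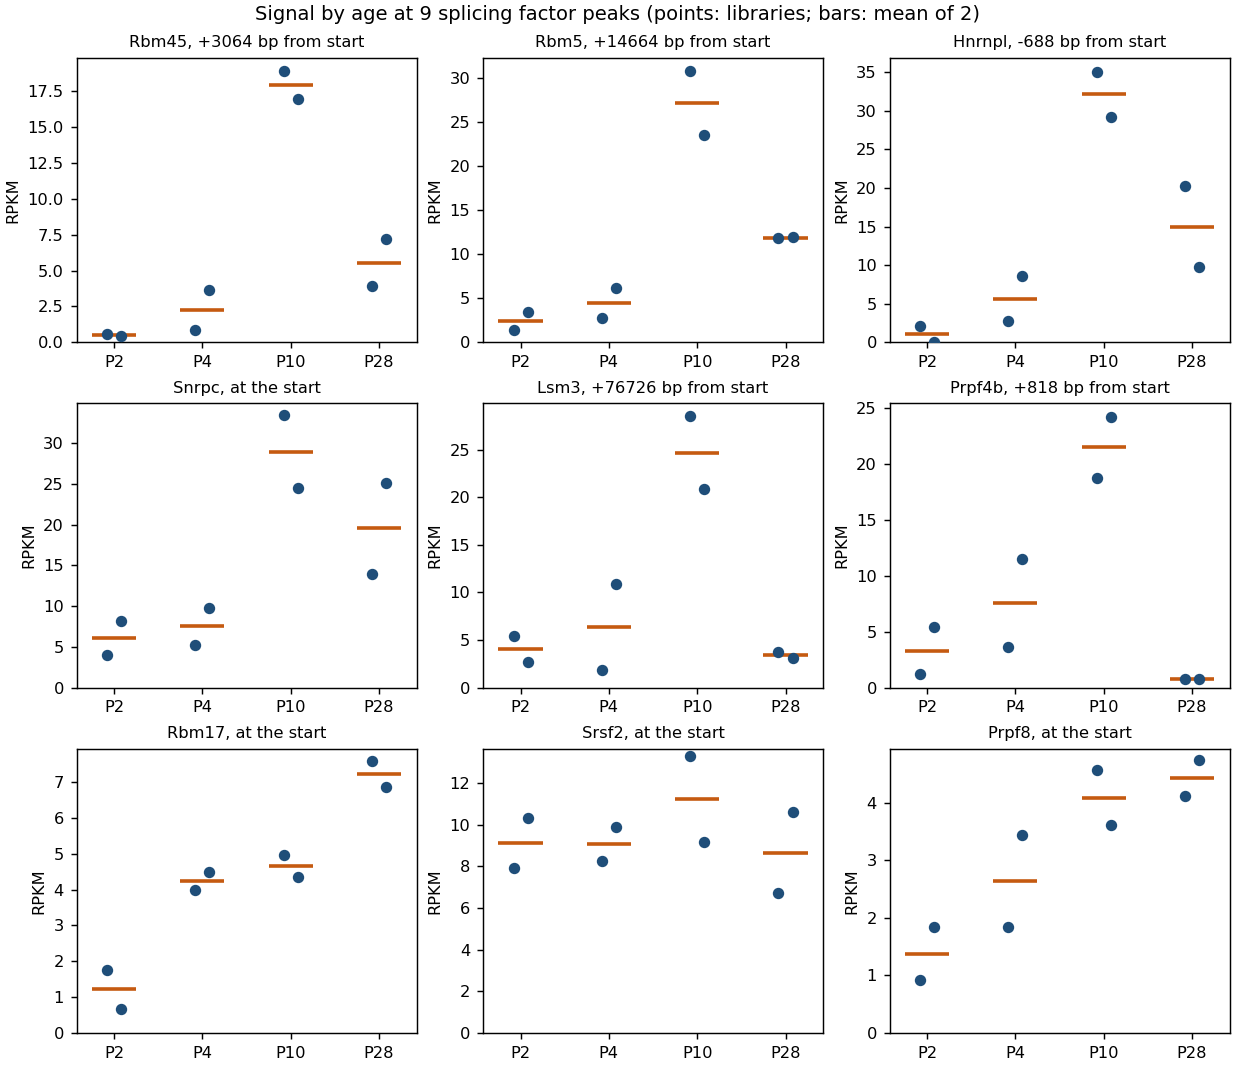
RPKM at 9 splicing factor peaks by age, with a point for each library and a bar for the mean of the 2 libraries. Rbm45, Rbm5, Hnrnpl, Snrpc, Lsm3 and Prpf4b stand highest at P10, Rbm17 at P28, and at Srsf2 the ages overlap.

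Genes of the splicing machinery outside the chosen families were taken from 2 lists, core components and regulators. Of 59 other core spliceosome genes 26 had a peak. Taking the strongest peak of each gene, 1 of the 26 rose between P10 and P4 (Phf5a, an SF3b subunit), against 905 of all 6860 genes with a peak. Between P28 and P10, 2 fell (Cactin and Cdc5l, against 1301). At P28, 3 were higher than at P2 (Plrg1, Ppih and Wbp4, against 644). In these comparisons 0 of the 26 changed the other way, against 96, 91 and 209 of the 6860. These differences in share were not tested. The Cdc5l peak had 1.38 and 1.46 RPKM at P28, against 10.5 and 13.3 RPKM at P10. It lay 172256 bp from the start, where the link to Cdc5l is only the authors' nearest-gene assignment. After centring, Cactin (adjusted p = 0.027, limma), Cdc5l (0.0087) and Wbp4 (0.03) still passed, and Plrg1 (0.31) and Ppih (0.2) did not. With the replicate number as a block, Cdc5l (0.059) and Cactin (0.16) did not pass. With a pseudocount of 0.1, Cactin (0.052) and Wbp4 (0.063) did not, nor on the values as deposited (0.23 and 0.13). Leaving out 1 library ended the call of Cdc5l only without P10 replicate 4 (0.05), and that of Cactin without P10 replicate 1 (0.11) or 4 (0.1) or P28 replicate 4 (0.11). Wbp4 ended without P2 replicate 3 (0.092) or P28 replicate 4 (0.15). Plrg1 ended without either library of P2 (0.057 and 0.18), P10 (0.07 and 0.072) or P28 (0.093 and 0.18). Ppih ended without P2 replicate 4 (0.33), either P10 library (0.068 each) or P28 replicate 3 (0.17) or 4 (0.1). The promoter peak of Phf5a had 17.2 and 25.7 RPKM at P10, against 2.31 and 12.1 RPKM at P4 (1.74 ± 0.59, adjusted p = 0.044, limma; 0.2 after centring). That call ended without P4 replicate 3 (0.36), P10 replicate 1 (0.14) or P10 replicate 4 (0.27).

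Of 78 other splicing regulators 50 had a peak, and by the strongest peak of each gene 7 rose between P10 and P4, 14 fell and 1 rose between P28 and P10, and 3 were higher and 1 lower at P28 than at P2. Over all 6860 genes with a peak, 905 rose and 96 fell between P10 and P4, 91 rose and 1301 fell between P28 and P10, and 644 were higher and 209 lower at P28 than at P2. The rise at P28 passed neither with a pseudocount of 0.1 (adjusted p = 0.13, limma) nor on the values as deposited (0.19). It was at a peak 355035 bp from the start of Ptbp2, a repressor of exons in developing neurons. It had 3.84 and 4.06 RPKM at P28, against 1.30 and 0 RPKM at P10 (1.71 ± 0.47, adjusted p = 0.013, limma; 0.011 after centring), a call that ended without P10 replicate 4 (0.27). Among the falls, a peak assigned to Srrm4, which drives neuronal microexons, had 1.25 and 1.98 RPKM at P28, against 26.7 and 22.1 RPKM at P10 (-3.29 ± 0.58, adjusted p = 0.00067, limma; 0.0037 after centring). It lay at -160353 bp from the start, and the call held in all 8 fits that left out 1 library. A peak of Celf2 at -1775 bp had 3.85 and 5.70 RPKM at P28, against 32.1 and 31.7 RPKM at P10 (-2.53 ± 0.58, adjusted p = 0.0043; 0.019 after centring) and also held in all 8, but not with a pseudocount of 0.1 (0.05), on the values as deposited (0.052) or with the replicate number as a block (0.15). Both P28 libraries lay far below both P10 libraries at each of these peaks. Msi1, a regulator of photoreceptor exons, had a peak at -27179 bp with 103 and 137 RPKM at P28, against 27 and 42.7 RPKM at P2 (1.78 ± 0.56, adjusted p = 0.038; 0.056 after centring). Without 1 library that call ended in 6 of 8 fits, with adjusted p from 0.076 without P10 replicate 1, through 0.077 without P10 replicate 4, 0.082 without P2 replicate 4, 0.12 without P28 replicate 3 and 0.21 without P2 replicate 3, to 0.22 without P28 replicate 4.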

How the data were processed

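CUT&RUN libraries were made by the authors from 250000 dissociated retinal cells per experiment, with an anti-NRL antibody and heterologous spike-in DNA, per the labels' protocols. Tools named in the submitters' processing notes are MACS2 2.2.5, Bowtie2 2.3.5.1, bedtools 2.29.0, Picard 2.20.8, Trimmomatic 0.38 and SAMtools 1.9. Those notes list GRCm38.p6 and ASM584v2 as builds and give no roles. There are 15 labelled libraries (3 of P2, 4 of every later age). The table analysed holds 8 (replicates 3 and 4 at P2, P4 and P28, replicates 1 and 4 at P10), and 7 were not analysed here. Since the labels do not tie replicates to different animals or cultures, p-values reflect only the spread between these libraries, which may be technical. Chi-square over peaks, divided by its degrees of freedom, was 1.16 to 1.57 between the libraries of an age, above counting noise, and none were merged.

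The deposited table gives RPKM for 8996 peaks with the authors' gene annotation, as its values show. Each value was a whole number of reads (100% within 0.001) over a width and a library scale of 5.26e+06 to 8.01e+06, of an origin not given in the sources used here. The width was the peak's own in the first column only, and moved 39 rows up the table with every further column. Recovered reads were therefore divided by each peak's own width. The lists, 1 per age, carry the authors' signal and score per peak, and the deposited signal served only to order the peaks of 1 list.

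Members were taken by gene symbol, and the members and gene lists were chosen with earlier results of these data known. log2(RPKM + 1) was fitted with limma 3.58.1 in R 4.3.3 (trend and robust empirical Bayes, age as factor, all 8 libraries, no filter), adjusted over all peaks by Benjamini-Hochberg. A log2 difference on this scale understates the change of weak peaks. For peaks named by the rule below, a read ratio with 1 to 3 reads at an age has an exact 95% interval, which covers counting error only. Named peaks were all called members where 10 or fewer, otherwise the 6 largest changes in each direction with separate libraries and signal at or above the median, 1 per gene; the strongest peak of each role; peaks of retinitis pigmentosa genes; and genes with 3 or more peaks. Calls outside this rule (Sf3b1, Sf3b5, Hnrnph1, Snrpd2, Rbm7, Lsm14a, Lsm14b, the Rbm45 promoter) and the genes of other lists given with values were chosen after their values were seen. Other software was Matplotlib 3.10.9, SciPy 1.17.1, pandas 2.3.3, NumPy 2.4.6 and Python 3.11.15.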

Additional observations from a re-analysis of the deposited data

How the results depend on the processing

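The counts of splicing factor peaks called were 0 for P4 against P2, 16 for P10 against P4, 15 for P28 against P10, 9 for P28 against P2 and 31 for any age. A filter of at least 10 reads changed none of them, and limma-voom on the recovered reads gave 0, 22, 15, 8 and 39. A pseudocount of 0.1 in place of 1 gave 0, 0, 3, 3 and 11. Centring each library on its median gave 0, 3, 6, 7 and 13, and the values as deposited, with shifted widths, gave 0, 11, 7, 4 and 25. With the replicate number as a block the counts were 0, 1, 3, 8 and 13. Libraries of the same number hardly deviated together (r = 0.085 for P4 and P2, 0.050 for P28 and P2, 0.029 for P28 and P4). This check cannot tell whether the numbers pair the libraries. Counting noise lowers such an r, and P10 had no replicate 3 among the libraries analysed. Leaving out 1 library, with the lone library of that age assumed to vary like the others, gave ranges of 0 to 4, 0 to 38, 2 to 22, 3 to 13 and 12 to 43. Of the 28 calls named by rule, none reversed under any of these settings, and over all settings the call held 242 times and ended 150 times. Of these 28 calls, 23 ended with a pseudocount of 0.1, 18 after centring, 18 with the replicate block, 17 on the values as deposited and 4 with limma-voom. Apart from centring, these endings are spelled out above for a few calls only. Counts over all peaks under these settings are not given, apart from the shares after centring above. The movements can therefore not be read as particular to splicing factor peaks. The cause of these movements was not tested. With equal list lengths of 1221 peaks, the P4, P10 and P28 lists overlapped 10, 10 and 18 splicing factor peaks (9.8, 9.8 and 17.6%, against 13.6% of all peaks in each) in place of 32, 88 and 49. With 2 libraries per age and median counts of 4 to 15 reads per splicing factor peak, smaller changes could be missed.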
